A study of Mus musculus with 4 samples.

Results

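The clustered histone genes were described in the hearts of wild-type mice and of mice without Klf9, a transcription factor that binds DNA through zinc fingers. Members were all genes of the deposited table whose symbol starts with Hist1h, Hist2h, Hist3h or Hist4h, which gave 51 of 17485 genes. They comprised 5 H1, 13 H2A, 13 H2B, 9 H3 and 11 H4 genes. By cluster, 43 belonged to Hist1 on chromosome 13, 5 to Hist2, 2 to Hist3 and 1 to Hist4. RefSeq for the build GRCm38.p6 lists 70 genes with such a symbol, all 51 members were among them, and those without a row in the table were not analysed here.

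The compared groups were wild-type (WT) hearts and Klf9 knockout (Klf9 KO) hearts, with 2 libraries in each, all from mice described as male and 8 weeks of age with free access to food and drink. The labels name no other treatment. The sources used here name no allele, extent of the deletion or strain, and do not say whether each library came from its own animal. The p-values therefore reflect the variation between these libraries alone, and some of it may be technical. The study asked how Klf9 bears on cardiac mitochondria, and the histone genes were measured as part of the whole transcriptome.

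Core histones H2A, H2B, H3 and H4 form the protein spool around which DNA is wrapped in a nucleosome, and the linker histone H1 binds where the DNA enters and leaves it. Most clustered histone genes are transcribed mainly while DNA is being replicated, and their mRNAs normally end in a short stem-loop instead of a poly(A) tail. The stem-loop is bound by the protein encoded by Slbp. Some members are also made as longer, polyadenylated mRNAs, mainly in cells that have stopped dividing. Most cells of an adult heart do not divide. A poly(A) selection takes up stem-loop mRNAs poorly, and no source used here says whether one was made.

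The stem-loop is shown for 6 members on which the results turn, read from GENCODE M21 transcripts on GRCm38, with the 16 stem-loop bases in capitals between up to 5 flanking bases on each side.
Hist1h2ap: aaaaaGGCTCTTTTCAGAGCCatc
Hist1h2ao: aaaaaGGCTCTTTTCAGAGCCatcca
Hist2h2aa1: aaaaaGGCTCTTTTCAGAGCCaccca
Hist1h4h: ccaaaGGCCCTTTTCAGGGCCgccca
Hist1h1c: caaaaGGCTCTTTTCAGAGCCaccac
Hist3h2a: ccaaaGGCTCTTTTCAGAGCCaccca
The annotated transcript of Hist1h2ap stopped 3 bases after the stem-loop and that of Hist1h2ao 31 bases after it. For Hist2h2aa1 and Hist1h4h, 35 and 46 bases followed. By contrast, the transcript of Hist1h1c ran on for 840 bases and that of Hist3h2a for 1643 bases. Both kinds of annotated end were therefore present among the members with measurable values.

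Klf9 itself had values of 74.9 and 58.8 in wild type against 2.66 and 1.99 in Klf9 KO hearts, a log2 fold change of -4.35 ± 0.20 SE (limma, Benjamini-Hochberg adjusted p = 3.46e-06). All values are per library and in an unstated unit, worked back from the pairwise ratios that the authors deposited. Levels of different genes were therefore not compared. A value of 0.01 is the smallest step and can stand for 0. Knockout library 2 went against its male label: the Y-linked genes Kdm5d and Ddx3y were listed at 3.42 to 17.1 in the other 3 libraries and at 0.01 in this one. Eif2s3y was at 23.6 to 41.8 in the others and 0.73 in this one, and Uty at 3.57 to 7.31 and 0.58. Results on the tested members and the counts of the gene lists are therefore given with and without it. The test took the 12135 genes that reached 1 in 2 or more libraries, whose median log2 fold change was 0.116. Scaling by the median of ratios (RLE) moved that median by 0.134, to -0.018. In this bulk tissue, fewer cells of a type and less RNA per cell cannot be told apart.

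Of the 51 clustered histone genes 12 were tested, or 23.5%, against 69.4% of all genes in the table. Among these 12, limma with Benjamini-Hochberg adjustment over all tested genes called 2 higher and 7 lower in Klf9 KO hearts at an adjusted p below 0.05, and 3 did not pass. Across all tested genes 27.7% were called higher and 17% lower. The median log2 fold change of the 12 was -0.68. These counts do not describe all members, and Hist1h1e, Hist1h2be and Hist2h3c2 reached 1 only in wild type, so they had to differ to be tested at all. Both groups reached 1 in the other 9 tested members, of which Hist1h2ap and Hist1h2ao were called higher. Hist1h1c, Hist1h2bc, Hist1h4h and Hist2h2aa1 of these 9 were called lower.

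After RLE scaling, which called 21.5% of genes higher and 21.7% lower, the same 2 and 7 members were called. Without Klf9 KO library 2, with 15.3% of genes called higher and 9.06% lower, the same 2 and 7 were called again. In that fit the lone knockout library is assumed to vary like the wild-type libraries. Adjusted p-values of fits that leave a single library in a group are not comparable with those of the fit to all libraries. Without any filter on low values, 51 members were tested and 6 were higher and 9 lower, against 18.4% and 10.3% of all genes.

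**Figure D1:**
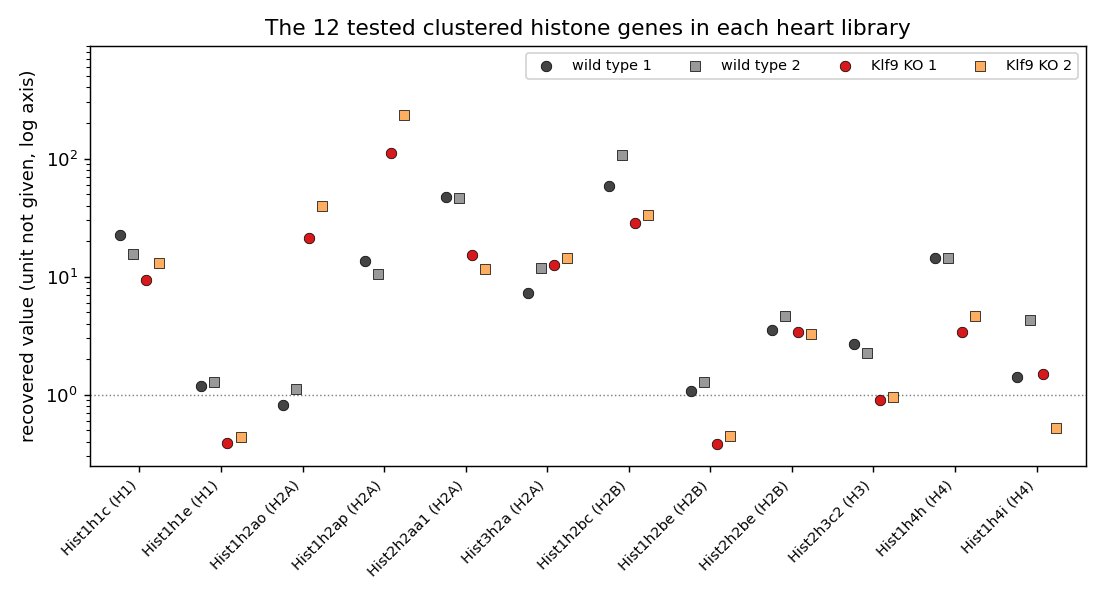
Recovered value (log axis, unit not given) of the 12 tested clustered histone genes in the 2 wild-type (black, grey) and 2 Klf9 KO (red, orange) libraries; the dotted line marks the value of 1 used as filter. Hist1h2ao and Hist1h2ap sat far higher in both knockout libraries, and 8 of the other members sat lower in both. Of these 8, Hist1h1e, Hist1h2be and Hist2h3c2 reached 1 only in wild type and so had to differ to be tested.

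**Figure D2:**
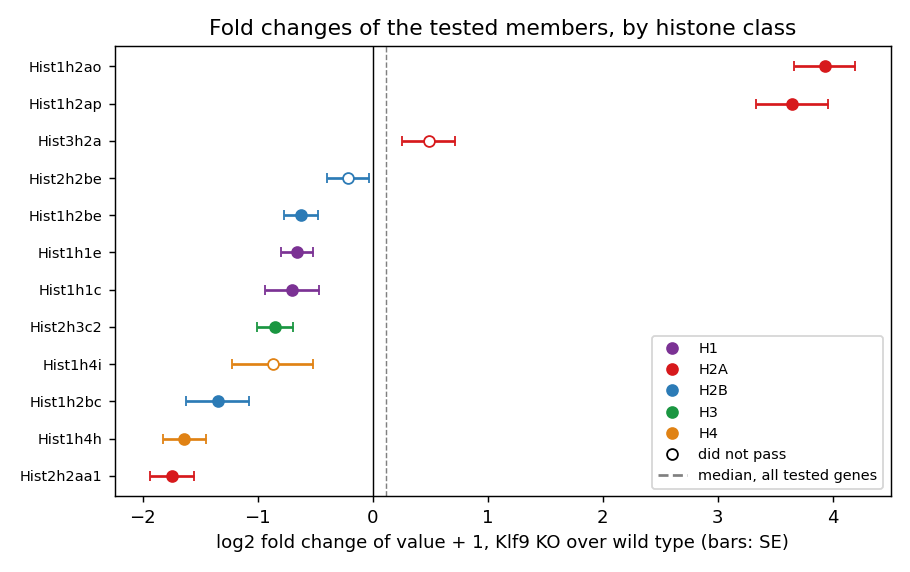
Log2 fold change of value + 1, Klf9 KO over wild type, with standard error bars, for the 12 tested members coloured by histone class; open circles did not pass at an adjusted p of 0.05. The dashed line is the median of all tested genes, 0.116, and only the H2A class holds members on both sides that passed.

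Among the 5 linker histone genes, Hist1h1c and Hist1h1e were tested and both fell. Hist1h1c encodes H1.2, one of the common somatic H1 proteins. It was at 22.6 and 15.4 in wild type and at 9.36 and 13.2 in Klf9 KO hearts. The groups did not overlap, and the wild-type mean was 1.69-fold that of the knockout (log2 fold change -0.70 ± 0.23 SE, limma, adjusted p = 0.0377). This call rested on single libraries: without WT library 1 the adjusted p was 0.0655, without Klf9 KO library 1 it was 0.339, and with no filter on low values it was 0.0994. Without Klf9 KO library 2 the log2 fold change was -0.93. Hist1h1e, which encodes H1.4, was at 1.19 and 1.28 against 0.39 and 0.44 in Klf9 KO hearts, with a log2 fold change of -0.66 ± 0.14 SE (limma, adjusted p = 0.00565). Only wild type reached the value of 1 needed for testing, so Hist1h1e had to differ to be tested. Its values were near 1 in wild type, where the added 1 shrinks a fold change: the ratio of the group means was 2.98. Leaving out knockout library 2 gave a log2 fold change of -0.68. The other 3 members, Hist1h1a, Hist1h1d and the testis gene Hist1h1t, never exceeded 0.24.

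The annotated promoter of Hist1h1c is printed as that of a member that fell and whose annotated transcript runs past the stem-loop. It spans chr13:23738557-23738806 on the plus strand of GRCm38.p6 and is, as for the other promoters printed, the 250 bases before the start annotated by RefSeq, with CCAAT, the pentamer common to promoters of replication-dependent histone genes, in capitals.
Hist1h1c: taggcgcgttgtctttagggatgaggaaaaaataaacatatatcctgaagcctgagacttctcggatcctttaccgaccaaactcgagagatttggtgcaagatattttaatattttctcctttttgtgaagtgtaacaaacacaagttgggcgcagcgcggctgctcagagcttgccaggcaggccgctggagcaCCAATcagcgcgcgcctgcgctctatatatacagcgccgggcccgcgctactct

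Among the 12 tested members, H2A was the only class with calls in both directions. Hist1h2ap and Hist1h2ao rose, Hist2h2aa1 fell, and Hist3h2a did not pass. With no filter on low values, H2B had 1 gene higher and 3 lower, and H4 had 3 higher and 1 lower. In that fit 18.4% of all genes were higher and 10.3% lower. Hist1h2ap was at 13.6 and 10.6 in wild type and at 112 and 233 in Klf9 KO hearts. Both knockout libraries were far above both wild-type libraries. The ratio of the group means was 14.3, with a log2 fold change of 3.65 ± 0.31 SE (limma, adjusted p = 5.19e-05). Without knockout library 2 the log2 fold change was 3.12, with a wider standard error of 0.37. With 1 wild-type library left, the spread came from the knockout libraries, and the adjusted p was 0.0706 without WT library 1 and 0.0843 without WT library 2.

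Hist1h2ao was at 0.82 and 1.11 in wild type and at 21.1 and 39.3 in Klf9 KO hearts. Again no library overlapped, the ratio of means was 31.3, and the log2 fold change was 3.93 ± 0.27 SE (limma, adjusted p = 1.75e-05). It was 3.50 without knockout library 2. Hist1h2ap and Hist1h2ao are not independent measurements. Their annotated coding sequences, 393 bases each, were 100% identical, and RefSeq lists the name of one as a synonym of the other. No source used here says how the authors divided reads between such copies. With both values summed into 1 gene, 1 member was called higher instead of 2, with a log2 fold change of 3.78 (limma, adjusted p = 4.08e-05).

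The region before Hist1h2ap is shown since this member rose. It spans chr13:21833476-21833725 on the minus strand of GRCm38.p6, with CCAAT, or ATTGG where it lies on the other strand, in capitals.
Hist1h2ap: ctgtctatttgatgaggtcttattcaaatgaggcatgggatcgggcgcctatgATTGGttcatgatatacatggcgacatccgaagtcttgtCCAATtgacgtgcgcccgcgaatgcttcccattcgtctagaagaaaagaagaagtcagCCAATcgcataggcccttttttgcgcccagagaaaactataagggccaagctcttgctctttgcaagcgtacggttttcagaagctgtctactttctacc
The promoter windows of Hist1h2ap and Hist1h2ao were identical over the 150 of 150 bases that overlap when one is shifted by 100 bases against the other.

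Hist2h2aa1, an H2A gene of the Hist2 cluster, moved the other way. It stood at 47.3 and 46.6 in wild type and at 15.2 and 11.6 in Klf9 KO hearts. The wild-type libraries were close together and both above the knockout, by a ratio of means of 3.50 and a log2 fold change of -1.74 ± 0.19 SE (limma, adjusted p = 0.000192). Without knockout library 2 it was -1.56. Its coding sequence differs from its closest copy in the table, Hist2h2ac, at 11 bases and by a gap of 3 (96.4% identity). The RefSeq gene next to Hist2h2aa1, H2ac19, is not among the members, so closer copies outside the table were not compared. The annotated promoter of Hist2h2aa1 lies at chr3:96245247-96245496 on the plus strand of GRCm38.p6, with CCAAT and GGGCGG on either strand in capitals.
Hist2h2aa1: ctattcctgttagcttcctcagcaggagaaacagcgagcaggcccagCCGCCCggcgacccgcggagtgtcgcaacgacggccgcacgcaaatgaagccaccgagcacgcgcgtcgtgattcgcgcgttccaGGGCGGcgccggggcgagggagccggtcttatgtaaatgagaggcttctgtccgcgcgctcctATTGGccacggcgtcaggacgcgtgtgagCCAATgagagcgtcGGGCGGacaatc

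Hist3h2a is an H2A gene outside the large clusters whose annotated transcript ends far past the stem-loop. It was at 7.29 and 11.8 in wild type and at 12.5 and 14.5 in Klf9 KO hearts. The groups did not overlap but lay close, and the log2 fold change of 0.49 ± 0.23 SE did not pass (limma, adjusted p = 0.114). Without WT library 2 the log2 fold change was 0.80, and without knockout library 2 it was 0.39. In the authors' deposited table its group comparison had a log2 ratio of 0.55 and a DEGseq q-value of 0.00279. That test differs from limma and called 41.3% of compared genes higher at a q-value below 0.05. The other 9 H2A genes were not tested, and the highest of their values was 1.42, of Hist1h2af in WT library 1.

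In the H2B class 3 of 13 genes were tested, of which Hist1h2bc and Hist1h2be fell and Hist2h2be did not pass. Hist1h2bc was at 58.9 and 108 in wild type and at 28.4 and 33.3 in Klf9 KO hearts. The 2 wild-type libraries were far apart, yet both lay above the knockout, with a ratio of means of 2.71 and a log2 fold change of -1.35 ± 0.28 SE (limma, adjusted p = 0.0045). Without knockout library 2 it was -1.46. This gene has a long annotated transcript of 1156 bases in which no histone stem-loop was matched, and its coding sequence differs at 2 bases from that of Hist1h2bq.

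Hist1h2be was at 1.08 and 1.29 in wild type and at 0.38 and 0.45 in Klf9 KO hearts, so that only wild type reached the value needed for testing (log2 fold change -0.63 ± 0.15 SE, limma, adjusted p = 0.00803, and -0.66 without knockout library 2). Hist2h2be, whose longest annotated transcript has 2620 bases, no stem-loop match and AATAAA near its end, was at 3.51 and 4.66 against 3.41 and 3.28. Its groups did not overlap, but WT library 1 lay next to the knockout libraries and the log2 fold change of -0.22 ± 0.18 SE did not pass (limma, adjusted p = 0.359, and -0.20 without knockout library 2). The other 10 H2B genes stayed at or below 0.89.

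Of the 9 H3 genes, only Hist2h3c2 was tested. It was at 2.70 and 2.26 in wild type and at 0.90 and 0.95 in Klf9 KO hearts, which put both knockout libraries just under 1. Only wild type thus reached the value needed for testing, so this gene had to differ to be tested. It fell, with a log2 fold change of -0.85 ± 0.16 SE (limma, adjusted p = 0.00285) and a ratio of means of 2.68. Without knockout library 2 it was -0.87. Its coding sequence differs at 1 base from that of Hist2h3b, which had values of 0.01 to 0.11 in the 4 libraries. The other 8 H3 genes stayed at or below 0.73.

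The H4 class had 2 tested genes, of which Hist1h4h fell. Hist1h4h was at 14.5 and 14.4 in wild type and at 3.37 and 4.62 in Klf9 KO hearts. The wild-type libraries were nearly equal and the knockout libraries both far below them, by a ratio of means of 3.61 and a log2 fold change of -1.64 ± 0.18 SE (limma, adjusted p = 0.000208). Without knockout library 2 it was -1.82. Its closest copy in the table was Hist1h4m, at 96.8% identity. Hist1h4i was at 1.42 and 4.25 in wild type against 1.5 and 0.52. These groups overlapped and the log2 fold change of -0.87 ± 0.35 SE did not pass (limma, adjusted p = 0.0721). It was -1.43 without WT library 1, -1.23 without knockout library 1 and -0.51 without knockout library 2. The other 9 H4 genes stayed at or below 1.18.

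The promoter of Hist1h4h, at chr13:23530794-23531043 on the plus strand of GRCm38.p6, is printed for contrast with those of the H2A genes: it holds GGGCGG, in capitals, and no CCAAT.
Hist1h4h: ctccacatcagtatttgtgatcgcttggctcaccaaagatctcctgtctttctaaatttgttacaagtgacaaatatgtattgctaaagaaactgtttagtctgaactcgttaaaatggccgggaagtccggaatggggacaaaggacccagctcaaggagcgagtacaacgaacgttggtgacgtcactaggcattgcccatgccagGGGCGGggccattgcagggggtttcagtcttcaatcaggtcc

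Promoter windows of 250 bases were matched for 48 of the 51 members and for 27025 genes in all, and searched on both strands for 4 motifs, none of which contains another. CCAAT was in 81.2% of members and 34.5% of all windows. It was in all 13 H2A and all 11 H2B windows but in 3 of the 11 H4 windows. The octamer ATTTGCAT, known from H2B promoters, was in 18.8% of members against 1.61% of all, in H2A and H2B genes only. TATAAA was in 43.8% of members and in 3504 of the 27025 windows. GGGCGG was in 31.2% of members and 32.9% of all windows, and by class in 8 of 11 H4 windows and in 0 of 11 H2B windows. Among the tested H2A genes, CCAAT was matched 3 times before Hist1h2ap and 2 times before Hist1h2ao, which both rose. The windows of Hist1h2ap and Hist1h2ao share 150 bases at a shift of 100. Their counts are therefore not independent and depend on where the annotated start lies. CCAAT was matched 2 times before Hist2h2aa1, which fell, and 2 times before Hist3h2a, which did not pass.

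The remaining 39 members were not tested. Their values were low and scattered over libraries: 16 were above 0.01 in a single library, 15 in 2, 7 in 3 and 1 in all 4. Above 0.01, they ranged from 0.06 to 1.42 with a median of 0.32. Wild-type libraries had 19 and 11 of them above 0.01 and Klf9 KO libraries 18 and 23, so that the counts of the groups overlapped. Over all 51 members, 74.5% were at 0.01 in at least 1 library, against 16.8% of all genes.

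Among the untested members, both knockout libraries were above both wild-type libraries in 4 genes (Hist1h2br, Hist1h4j, Hist1h4m and Hist4h4) and below them in 3 (Hist1h2ae, Hist1h2bj and Hist1h3e), and the groups overlapped in 32. Of all untested genes 29.2% were above and 16.5% below in this way. For the tested members the counts were 3 above and 8 below, against 45.2% and 30.2% of all tested genes. Of these 8, 3 (Hist1h1e, Hist1h2be and Hist2h3c2) reached 1 only in wild type, so the filter fixed their order in advance. Hist1h2br was at 0.01 and 0.09 in wild type and at 0.73 and 0.79 in knockout hearts. Hist1h4m was at 0.01 in both wild-type libraries and at 1.18 and 0.69 in the knockout libraries. In the authors' deposited table these were the only untested members with a group q-value below 0.05. Their q-values, 2.14e-06 and 0.00614, are from DEGseq and are not comparable with limma values.

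**Figure D3:**
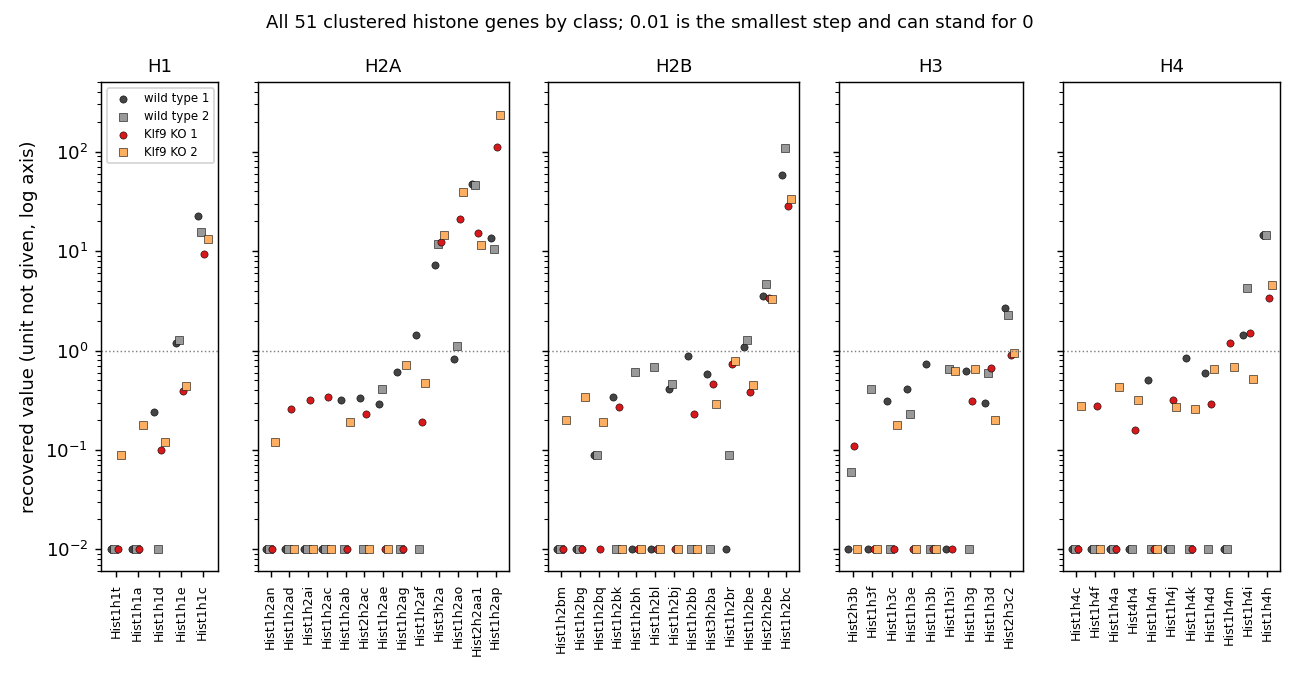
Recovered value (log axis, unit not given) of all 51 clustered histone genes in the 4 libraries, in panels by class and ordered by mean within a panel; the dotted line marks 1. Most members lie under 1 in each library, with many points at 0.01, and the 12 tested genes, 1 to 4 in each class, stand at the right of the panels.

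The 4 pairwise log2 ratios of the authors' deposited table, knockout library over wild-type library, were all given for 26 members. At least 1 was missing for the other 25, where both libraries of a pair were at the smallest step. Of the 26, all 4 ratios were above 0 in 7, all below 0 in 11 and of both signs in 8. Over all genes with 4 ratios, 43.6% had all above and 28.2% all below 0. For Hist1h2ap they ran from 3.05 to 4.46 and for Hist1h2ao from 4.25 to 5.58. Those of Hist2h2aa1 ran from -2.02 to -1.62 and those of Hist1h4h from -2.10 to -1.64. The 4 ratios of a gene share libraries and are not 4 replicates. For these genes the spread over pairs was small beside the ratio itself, while for Hist1h4i the ratios ran from -3.03 to 0.08 and for Hist1h1c from -1.27 to -0.23. The authors' deposited table gave a group comparison by DEGseq for 30 members, of which 5 were higher and 8 lower at a q-value below 0.05. In the authors' deposited table as a whole, 41.3% of the genes with a group comparison were higher and 28.7% lower at that q-value.

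Near-identical copies limit how far single rows can be read. Within a class the coding sequences had a median identity of 97.8% among H2A, 97.4% among H2B, 97.2% among H3 and 94.2% among H4 genes, against 69.7% among the H1 genes. Besides Hist1h2ao and Hist1h2ap, the pairs Hist1h2bq and Hist1h2br and Hist1h4m and Hist1h4n were identical. Members of an identical pair did not have equal values: Hist1h2bq was at 0.09 in both wild-type libraries and at 0.01 and 0.19 in the knockout libraries. Hist1h4n was above 0.01 in WT library 1 only, at 0.50, where Hist1h4m was at 0.01. Of the 5 classes H1 had the least similar copies, with 83.9% identity in its closest pair.

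In the order that RefSeq gives along chromosome 13, Hist1h2bq, Hist1h2ao, Hist1h4m, Hist1h4n, Hist1h2ap and Hist1h2br follow each other with no other gene between them. In 4 of these 6, Hist1h2ao, Hist1h4m, Hist1h2ap and Hist1h2br, both knockout libraries were above both wild-type libraries. The same held for 45.2% of all tested and 29.2% of all untested genes. This stretch was chosen after its values were seen, it holds the 3 identical pairs, and how reads were divided among them is not known. The only other Hist1 member with that order of libraries was Hist1h4j, at 0.32 and 0.27 in Klf9 KO hearts and at 0.01 in both wild-type libraries. Hist1h2ap and Hist1h2br are neighbours on opposite strands, as are Hist1h2ao and Hist1h2bq. Elsewhere in the cluster, Hist1h2bc, which fell, has as its neighbour Hist1h2ac, which was above 0.01 in knockout library 1 only, at 0.34.

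**Figure D4:**
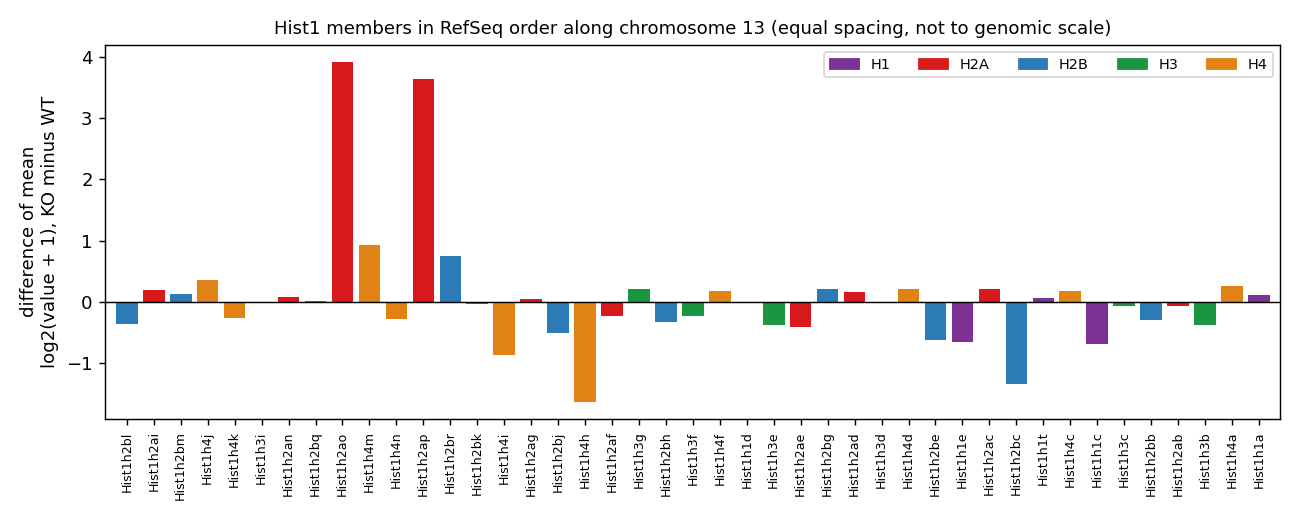
Difference of mean log2(value + 1), Klf9 KO minus wild type, for the 43 Hist1 genes in RefSeq order along chromosome 13, equally spaced and coloured by class. The 2 tall bars are Hist1h2ao (3.93) and Hist1h2ap (3.65), with Hist1h4m and Hist1h2br beside them, and the deepest bars below 0 are Hist1h4h and Hist1h2bc at other places in the order.

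The annotated mRNA ends were also compared between tested and untested members. A stem-loop was matched in 10 of 12 tested and 28 of 39 untested members. The transcript ran more than 100 bases past it in 6 tested and 14 untested members, and the longest transcript exceeded 1000 bases in 7 of 12 and 9 of 39. Of the 7 members that fell, Hist2h2aa1 and Hist1h4h have annotated ends within 46 bases of the stem-loop. The transcripts of Hist1h1c, Hist1h1e, Hist1h2be and Hist2h3c2, which also fell, ran up to 840, 1153, 1861 and 377 bases past the stem-loop. In Hist1h2bc, the remaining member that fell, no stem-loop was matched. Both members that rose have annotated ends within 31 bases of the stem-loop. Whether the annotated end goes with the direction was not tested.

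Histone genes outside the clusters moved mostly in 1 direction. Of 15 listed replacement and variant histone genes, which encode histones made independently of replication or with special roles, 12 were in the table, 11 were tested, 10 rose and H2afj did not pass, where 27.7% of all tested genes were higher. Their median log2 fold change was 1.06 above that of all tested genes. H1fx, a linker histone variant, was at 1.20 and 0.75 in wild type and at 19.7 and 31.5 in Klf9 KO hearts (log2 fold change 3.73 ± 0.24 SE, limma, adjusted p = 1.4e-05). H2afx, the H2A variant that is phosphorylated at DNA breaks, was at 6.62 and 5.42 against 24.04 and 39.4, with 2.19 ± 0.24 SE. H2afy2, a macroH2A, was at 2.84 and 3.06 against 11.7 and 13.1. H3f3a and H3f3b both encode H3.3, and both rose: H3f3a was at 124 and 217 against 341 and 370, and H3f3b at 43.5 and 59.99 against 103 and 123. H3f3a had the wider wild-type spread, and its adjusted p was 0.0657 without knockout library 2.

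Of 20 listed genes for the transcription, end processing and decay of clustered histone mRNA, 19 were tested, 7 rose and 12 did not pass, a share not far above the 27.7% of all tested genes. The list's median was 0.23 above that of all tested genes. Cdk2, the kinase that with cyclin E activates histone gene transcription, was at 5.78 and 5.69 in wild type and at 22.4 and 23.7 in knockout hearts. Ccne1, encoding cyclin E1, was at 0.81 and 1.15 against 2.78 and 3.80. Lsm11, a subunit of the U7 particle that cuts histone pre-mRNA after the stem-loop, was at 1.61 and 1.14 against 3.74 and 4.15. Slbp was at 5.65 and 5.44 against 9.49 and 10.9, a log2 fold change of 0.77 ± 0.17 SE (limma, adjusted p = 0.00601). These 4 rose in both knockout libraries. Npat, the coactivator of clustered histone genes, was at 3.10 and 3.09 against 4.45 and 3.98 and did not pass. Srrt rose, from 26.6 and 21.6 to 43.6 and 53.1 (adjusted p = 0.0863 without knockout library 2), and Sympk, at 46.0 and 29.9 against 36.5 and 39.6, did not pass. After RLE scaling 7 rose and 1 fell.

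Of 20 histone chaperone genes, all tested, 12 rose (27.7% of all tested genes did) and 8 did not pass, with a median 0.56 above that of all tested genes. Chaf1b, a subunit of the assembly factor that deposits new H3 and H4 behind the replication fork, was at 0.55 and 0.41 in wild type and at 5.27 and 7.29 in knockout hearts. Asf1b, which hands H3 and H4 to that factor, was at 1.10 and 1.27 against 7.68 and 10.1. Mcm2, a subunit of the replicative helicase that also holds parental histones, was at 2.80 and 3.21 against 14.2 and 15.6. Chaf1b reached 1 only in knockout hearts and so had to differ to be tested. Each was higher in both knockout libraries by more than the spread within groups. Npm1, at 56.5 and 113.8 against 77.6 and 82.8, and Nap1l4, at 61.3 and 75.8 against 61.7 and 62.4, did not pass.

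All 24 tested genes of a list of 25 for S phase, in which DNA is replicated, rose, where 27.7% of all tested genes did. Their median was 1.68 above that of all tested genes. Of the 24, 6 (Mcm5, Prim1, E2f1, Cdt1, Cdc6 and Tk1) reached 1 only in knockout hearts and had to differ to be tested. The other 18 reached 1 in both groups. Mcm2 is in this list and in the one before. Ccna2, encoding the cyclin of S and G2 phase, was at 1.37 and 1.65 in wild type and at 20.9 and 31.9 in knockout hearts. Top2a was at 1.28 and 1.56 against 20.7 and 26.6, and Rrm2, the small subunit of ribonucleotide reductase, at 1.6 and 1.86 against 25.4 and 26.9. Pcna, the sliding clamp of DNA polymerase, was at 18.5 and 26.5 against 41.1 and 47.1 and rose, though its adjusted p was 0.0753 without knockout library 2. Without that library 20 of 24 S-phase genes, 7 of 11 replacement histone genes, 7 of 20 chaperone genes and 3 of 19 mRNA processing genes rose, where 15.3% of all tested genes did. The count for mRNA processing is at that background.

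**Figure D5:**
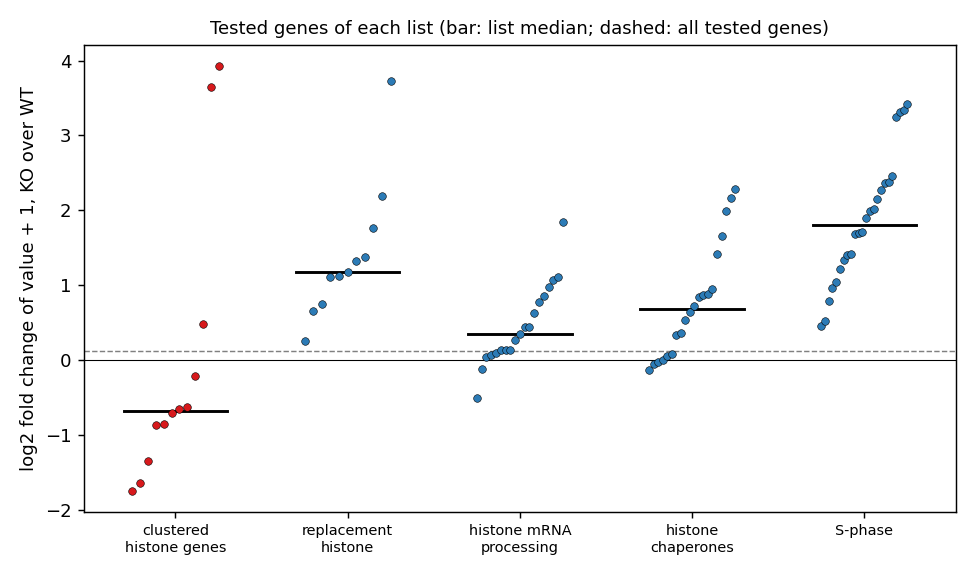
Log2 fold change of value + 1, Klf9 KO over wild type, of each tested gene in 5 lists, with the list median as a bar and the median of all tested genes (0.116) as a dashed line. The 12 clustered histone genes spread from -1.74 to 3.93 with a median of -0.68, while the medians of the other 4 lists lie above the dashed line.

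Some markers of the cell types found in hearts and blood differed between the genotypes. Of all tested genes 27.7% were called higher and 17% lower, against which the counts below are to be read. The sums below add values of different genes in an unstated unit. They follow the genes with the highest values and do not measure amounts of a cell type. Of 4 macrophage markers 3 fell, and their summed value was 79.0 and 98.7 in wild type and 27.3 and 28.1 in knockout hearts. Of 4 fibroblast markers the collagen genes Col1a1 and Col1a2 rose and Dcn fell, with sums of 362 and 505 against 768 and 850. Of 4 endothelial markers 1 rose, with sums of 295 and 271 against 370 and 379. Of 6 cardiomyocyte markers 1, Tnni3, fell, and the sums overlapped, at 25800 and 29130 against 30690 and 29050. Of the 5 tested red cell markers 0 passed in limma, 2 of them with an unadjusted p below 0.05 (0.0354 for Hba-a2 and 0.0496 for Hba-a1). Red cell markers summed to 11070 and 10830 in wild type against 18940 and 12510 in knockout hearts. Erythroblast markers summed to 16.3 and 9.82 against 51.9 and 42.5. Of the erythroblast markers Tfrc rose, the other 2 tested did not pass, and Klf1 was at 0.01 in both wild-type libraries and at 0.09 and 0.08 in the knockout libraries. Lymphocyte markers summed to 1.11 and 0.22 against 2.52 and 1.64, and germ cell markers to 0.43 and 0.37 against 0.75 and 0.58, with none tested. The part of these shifts in the histone values was not tested.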

How the data were processed

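Total RNA of 4 heart samples was sequenced, and the sample titles gave each library its group and number. The authors deposited 1 table of comparisons. Per the file headers, it holds a log2 ratio for every knockout library over every wild-type library, and for the groups the log2 ratio, p-value and q-value of DEGseq. The table holds no counts, so depth is unknown, and no interval for counting error can be given. For the aligner, the build, the quantification and the treatment of reads that match several copies, nothing is given in the sources used here.

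Values per library were recovered from the pairwise ratios by continued fractions, as the smallest 4 whole numbers that give them, at an assumed step of 0.01. Where a ratio was missing, both libraries of the pair were assumed to be at that step. All 17485 genes were resolved, and the ratios of the 16152 genes with all 4 were additive to within 9.9e-14 in log2. A factor common to the 4 values of a gene cannot be seen, which can make its level, but not its ratios, too low. Sums over genes were 409359 to 489534 per library.

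The planned count test could not be used, so its stated fallback was: limma 3.58.1 in R 4.3.3 (trend, robust) on log2(value + 1), genes with at least 1 in at least 2 libraries, group as the only term, Benjamini-Hochberg adjusted p below 0.05. The test was tested on simulated data. Members and lists were chosen with earlier results of these data known. Named genes were, in each class, the 4 largest changes past the threshold, the 2 highest means and any member against its class, the 2 highest means among members that did not pass, and in each other list the 3 largest changes and 2 highest means; the other named genes were chosen after their values were seen. Alternatives were RLE and upper quartile scaling, pseudocounts of 0.1 and none, no filter, a mean of at least 1, non-robust moderation, each library left out, a replicate block and, chosen after seeing the data, Hist1h2ap and Hist1h2ao summed. Promoters came from RefSeq (GRCm38.p6), and transcripts and coding sequences from GENCODE M21, aligned with Biopython 1.88. Other software was pandas 2.3.3, numpy 2.4.6 and matplotlib 3.10.9 under Python 3.11.15.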

Additional observations from a re-analysis of the deposited data

How the results depend on the processing

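The count of clustered histone genes that rose (2) or fell (7) was the same, with the same genes, under RLE and upper quartile scaling, pseudocounts of 0.1 and none, non-robust moderation and without Klf9 KO library 2. With no filter, 6 rose and 9 fell: 7 members were added, each at the smallest step in at least 1 library, and Hist1h1c was lost. With a mean of at least 1 required, 10 members were tested and 2 rose and 5 fell, without Hist1h1e and Hist1h2be. With Hist1h2ap and Hist1h2ao summed, 1 rose. By class, no filter gave 1 called H1, 4 H2B (1 higher, 3 lower), 2 H3 and 4 H4 genes (3 higher, 1 lower). A mean of at least 1 gave 1 H1 and 1 H2B gene. With single libraries left out, 1 to 2 members rose, 1 to 2 H1 and 1 to 2 H4 genes were called, 3 to 10 mRNA processing genes and 7 to 15 chaperone genes. Over all tested genes, 1859 to 4327 rose and 1100 to 3261 fell in these fits. Of 383 values for 32 named genes under the alternatives, 363 kept their direction and their side of the threshold, 8 lost and 5 gained the call, and 7 changed sign, none of a clustered histone gene. The 3 genes that changed sign did not pass with all 4 libraries. They were Nap1l4 without WT library 2 (0.018), Npm1 without WT library 2 and without Klf9 KO library 1, and Sympk with RLE (-0.12) and upper quartile scaling (-0.022), without WT library 2 and without Klf9 KO library 2. With each library left out in turn, Nap1l4 ranged from -0.28 to 0.018, Npm1 from -0.50 to 0.50 and Sympk from -0.27 to 0.34. Npm1 was called lower without WT library 1 (limma, adjusted p = 0.0111) and higher without WT library 2 (0.0133). The cause of these shifts was not tested.

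With the replicate number as a block, 2 members rose and 8 fell, and 2 H4 genes were called, since Hist1h4i was added. The labels do not say that a number pairs libraries, and the correlation of the differences between replicates 1 and 2 in the wild-type and knockout groups was -0.0355 over 12135 genes. The depth is unknown, so that for the 39 untested members neither a change nor its absence can be read.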
